A study of Mus musculus with 18 samples.

Results

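The integrin and laminin genes were followed by RNA-seq through the differentiation of mouse embryonic stem cells (mESCs). Members were chosen by a rule on gene symbols, set with earlier results of these data known. The rule took every integrin alpha or beta chain gene and every laminin alpha, beta or gamma chain gene that both deposited count tables name. They numbered 37 of 54429 gene names, with 18 integrin alpha, 8 integrin beta and 11 laminin genes (5 alpha, 3 beta and 3 gamma). The series, by its title, concerns acetylation of EED, a core subunit of Polycomb repressive complex 2, by CBP and P300. The 18 libraries formed 9 groups of 2. Knock-in mESCs expressed FLAG-tagged EED, either of wildtype sequence (FLAG-WT) or with lysine 19 replaced by arginine (K19R). Both knock-in lines were grown on gelatin with serum, leukemia inhibitory factor (LIF) and 2i, that is the MEK inhibitor PD0325901 and the GSK3 inhibitor CHIR99021, and sampled as day 0. Both were also sampled as embryoid bodies, aggregates kept in suspension on a shaker without LIF and 2i, at days 2, 6 and 10. The last group was wildtype mESCs without the knock-in, grown with LIF and without 2i. How many clones each knock-in line stands for was not given in the sources used here. Nor was it given whether the replicates of a group were grown separately, so the spread behind each p-value here is that of these libraries and may be technical.

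Laminins are secreted trimers of 1 alpha, 1 beta and 1 gamma chain that polymerise into the sheet of the basement membrane. Laminin-111, built from the products of Lama1, Lamb1 and Lamc1, and laminin-511, which has the Lama5 chain instead of the Lama1 chain, are the main laminins of the early mouse embryo, and endoderm cells on the surface of embryoid bodies are a known source of laminin-111. Integrins are alpha-beta dimers on the cell surface that bind laminins and other matrix proteins and connect them to the actin cytoskeleton, or, for the chain encoded by Itgb4, to intermediate filaments. The Itgb1 chain pairs with many alpha chains, among them the laminin-binding chains of Itga3, Itga6 and Itga7 and the fibronectin-binding chain of Itga5.

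The total count per library ran from 20158077 to 28917558 in the 16 knock-in libraries and was 14190166 and 37375083 in the wildtype mESCs. The K19R substitution itself cannot be checked in gene counts. Eed was counted in every knock-in library, at 189 to 211 CPM by library totals at day 0 and 32.8 to 51.1 at days 6 and 10. CPM is the count scaled to a common library size. The summed level of 8 pluripotency markers was 5996 to 6350 CPM at day 0 and 281.7 to 952.6 at day 10. Of the 37 members, 34 passed the filter on low counts, while Itga2, Itgad and Itgax did not and had at most 8 counts in any knock-in library. All levels below are CPM after TMM scaling of the knock-in libraries, and changes are log2 fold changes ± SE from edgeR's quasi-likelihood test, called at a Benjamini-Hochberg adjusted p under 0.05. On GRCm38, the genes of laminin-111 lie at chr17:67697259-67822647 (Lama1), chr12:31265234-31329644 (Lamb1) and chr1:153218922-153332786 (Lamc1), and Lama5 at chr2:180176373-180225859. In such bulk samples fewer cells of a type and less RNA per cell cannot be told apart.

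The stretches before the start sites of Lamb1, Lama5 and Itga5 are shown. Lamb1 was planned with the other laminin-111 chains, which had no promoter entry, and Lama5 and Itga5 were added after their values were seen. These members moved in different ways over the time course: Lamb1 rose at day 2 in both lines, Lama5 fell in both, and Itga5 rose in FLAG-WT and fell in K19R. RefSeq promoter entries on GRCm38.p6 were found for 23 of the 37 members and for 5 of the 8 genes followed in every comparison (Lamb1, Lama5, Itgb1, Itga5 and Itgav, not Lama1, Lamc1 or Itga6). The 250 bases before the start were searched on both strands for AGATAA and TGATAA, forms of the GATA motif, GGGCGG, the GC box, and ACAAAG, a SOX-type motif. Capitals mark GC boxes, written as CCGCCC where the match is on the other strand.
Lamb1: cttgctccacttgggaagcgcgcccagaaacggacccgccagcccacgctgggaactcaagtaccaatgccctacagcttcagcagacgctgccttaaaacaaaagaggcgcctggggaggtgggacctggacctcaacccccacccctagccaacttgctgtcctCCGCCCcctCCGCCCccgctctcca
Lama5: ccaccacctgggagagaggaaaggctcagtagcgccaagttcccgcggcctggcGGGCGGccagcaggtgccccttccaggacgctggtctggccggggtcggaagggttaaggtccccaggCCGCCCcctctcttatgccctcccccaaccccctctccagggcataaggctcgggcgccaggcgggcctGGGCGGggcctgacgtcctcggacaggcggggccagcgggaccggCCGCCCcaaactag
Itga5: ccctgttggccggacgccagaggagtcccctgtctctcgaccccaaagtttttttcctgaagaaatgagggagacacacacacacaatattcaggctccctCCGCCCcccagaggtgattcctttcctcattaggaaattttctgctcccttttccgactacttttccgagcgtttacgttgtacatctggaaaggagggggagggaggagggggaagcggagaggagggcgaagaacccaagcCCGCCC
The Lamb1 stretch is chr12:31265043-31265233 on the plus strand and ends 59 bases before the RefSeq start, where the first exon of the deposited annotation begins. The Lama5 stretch is chr2:180225860-180226109 and that of Itga5 chr15:103366792-103367041, both on the minus strand and up to the start. Lamb1 held 2 GC boxes, Lama5 held 4 and Itga5 held 2, and none of the 3 windows held a GATA or SOX-type match. Over all 32851 promoter windows of the same length, 32.7% held GGGCGG, 16.5% ACAAAG, 9.99% AGATAA and 7.94% TGATAA. These matches describe letters in a window, and a window without a match says nothing about a factor.

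Laminin chain genes took a growing part of the transcriptome as embryoid bodies formed in the FLAG-WT line. The 11 laminin genes together held 0.171% and 0.174% of the counts in the 2 FLAG-WT libraries at day 0 and 0.208% and 0.203% at day 2. By day 6 they held 0.542% and 0.594%, and by day 10, 0.801% and 1.00%. Most of this came from the 3 chains of laminin-111. Lamb1, which encodes the beta chain, stood at 56.1 and 59.8 CPM at day 0, 583 and 578 at day 2, 2193 and 2287 at day 6, and then 2886 and 3703 at day 10. Lama1, the alpha chain, went from 141 and 153 CPM to 371 and 355 at day 2, 1760 and 1937 at day 6, and finally 2586 and 3638 at day 10. Lamc1, the gamma chain, was already high at 870.2 and 892 CPM at day 0, dipped to 663 and 657 at day 2 and reached 2677 and 3477 at day 10. No library of a later day overlapped day 0 for any of these chains, and the 2 libraries of day 10 differed most from each other.

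In the FLAG-WT line the changes from day 0 to day 10 were 5.83 ± 0.12 for Lamb1, 4.40 ± 0.15 for Lama1, 1.80 ± 0.12 for Lamc1 and 1.23 ± 0.10 for Lama5, the alpha chain of laminin-511 (adjusted p from 2.44e-24 to 9.6e-12). Lamb2 and Lamb3 also rose, by 2.79 ± 0.08 and 3.09 ± 0.21. Lama3 fell by 4.62 ± 0.30, from 7.55 and 9.53 CPM to 0.157 and 0.535. Lama3 and Lamb3, which encode an alpha and a beta chain of epithelial basement membranes, thus moved in opposite directions. At day 2 the laminins were split: Lamb1 had risen by 3.32 ± 0.11 and Lama1 by 1.30 ± 0.13, while Lama5, Lamb2, Lamc1 and Lama4 had fallen by 1.00 ± 0.10, 0.56 ± 0.09, 0.42 ± 0.11 and 2.32 ± 0.29.

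**Figure D1:**
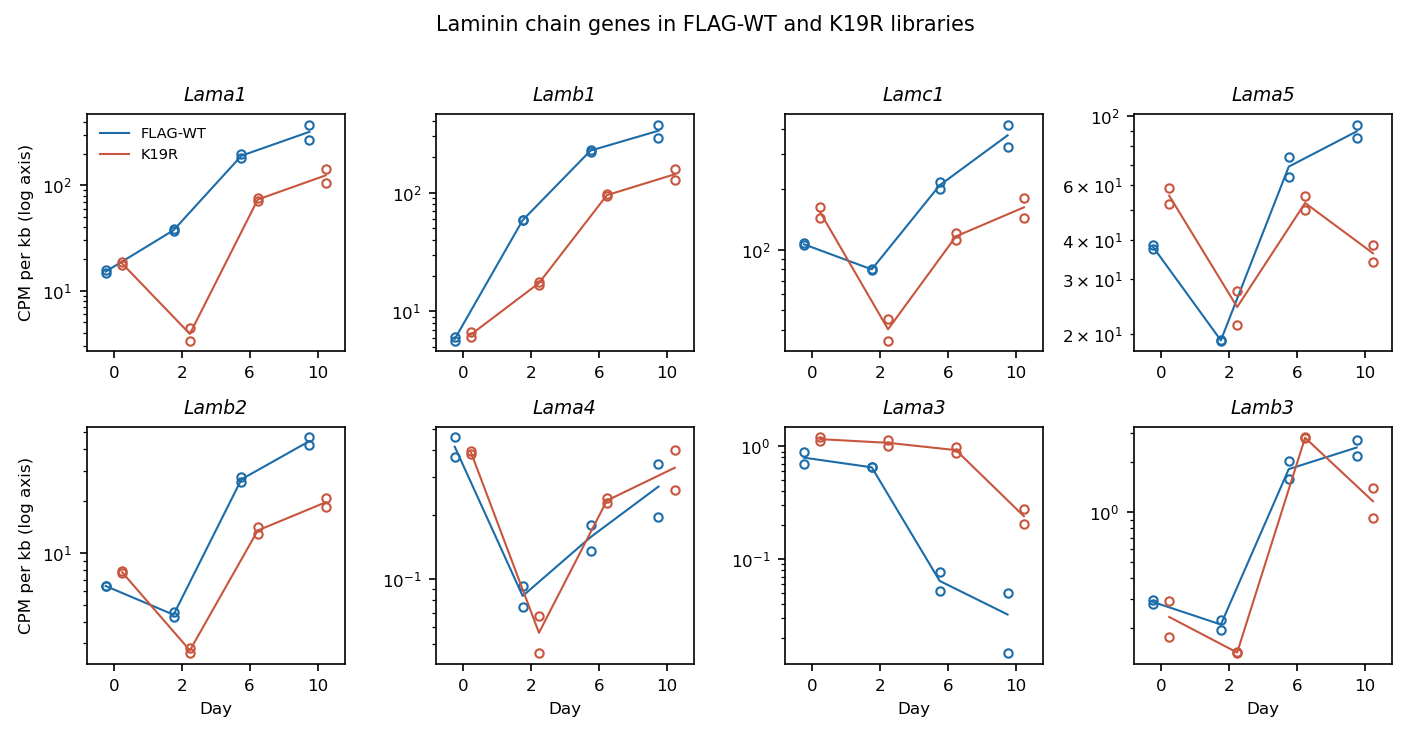
Level of 8 laminin chain genes per kilobase of exon (CPM per kb, log axis, a separate scale in each panel) against day in the FLAG-WT and K19R lines. Each circle is 1 library and lines join the means of 2. Lama1 drops to 3.90 CPM per kb in K19R at day 2 against 37.5 in FLAG-WT, and Lama3 stays higher in K19R at days 6 and 10.

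K19R embryoid bodies also gained Lama1 and Lamb1 transcripts by day 10, but Lama1 and Lamc1 first fell. In this line Lama1 went from 169.7 and 182 CPM at day 0 to 42.9 and 32.6 at day 2, a change of -2.22 ± 0.14 (adjusted p = 2.81e-13), before it reached 691 and 729 at day 6 and 1387 and 1018 at day 10. Lamc1 went the same way, from 1197 and 1348 CPM to 373 and 291 at day 2 and to 1503 and 1188 at day 10. Its day 10 level was not distinguishable from day 0 (0.08 ± 0.11, adjusted p = 0.526). Lamb1 was the 1 laminin that rose at day 2 in K19R, by 1.44 ± 0.10, and 7 of the 11 fell, among them Lama1, Lama4, Lama5, Lamb2, Lamb3 and Lamc1. The fall of Lamb3 was lost when any of 3 libraries was left out, with an adjusted p of 0.581 without replicate 1 of K19R day 0. By day 10 the change from day 0 was 4.48 ± 0.11 for Lamb1, 2.77 ± 0.14 for Lama1 and -0.61 ± 0.10 for Lama5.

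Integrin genes followed the same division into rising and falling members. In FLAG-WT, Itgb1 went from 256 and 261 CPM at day 0 to 308 and 327 at day 2, then 798 and 795 at day 6 and lastly 1183 and 1224 at day 10, with changes of 0.30 ± 0.07, 1.62 ± 0.07 and 2.22 ± 0.07. Itga5 went from 92.3 and 96.2 CPM to 149.6 and 148, 349.6 and 344, and 443 and 489 (0.66 ± 0.07, 1.88 ± 0.07 and 2.31 ± 0.07). The beta chain Itgb4 rose most among integrins above 10 CPM, by 4.85 ± 0.09 at day 10. Itgb3 fell by 3.58 ± 0.10 already at day 2, and Itgal fell by 5.78 ± 0.34 at day 10. Itga6 was not distinguishable from day 0 at day 2 (-0.02 ± 0.07) and lower at days 6 and 10 (-1.11 ± 0.07 and -0.65 ± 0.07). Itgav was lower at day 2 (-0.57 ± 0.08), not called at day 6 (0.08 ± 0.08, and -0.30 and called with library totals alone) and higher at day 10 (0.86 ± 0.08).

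In K19R, Itgb1 also rose at every later day, by 0.35 ± 0.07, 1.34 ± 0.07 and 1.25 ± 0.07, from 223 and 207 CPM at day 0 to 498 and 528 at day 10. Itga5 took another course, from 107 and 108 CPM at day 0 down to 48.2 and 44.4 at day 2 (-1.21 ± 0.07) and up to 153 and 166 at day 6 (0.57 ± 0.07) and 217 and 215 at day 10 (1.01 ± 0.07). Itga6 was lower than day 0 throughout (-0.40 ± 0.07, -1.08 ± 0.07 and -0.98 ± 0.07). Itgav was lower at days 2 and 6 (-0.91 ± 0.09 and -0.64 ± 0.08) and not called at day 10 (-0.18 ± 0.08, adjusted p = 0.0618). Day 6 changes of the laminins in this line were 3.90 ± 0.11 for Lamb1, 2.01 ± 0.13 for Lama1, -0.40 ± 0.11 for Lamc1 and -0.08 ± 0.10 for Lama5, against 5.27 ± 0.12, 3.65 ± 0.14, 0.98 ± 0.11 and 0.85 ± 0.10 in FLAG-WT.

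Most members that could be tested were called at the later days, as were most genes. In FLAG-WT 22 of the 34 members tested were called at day 2, where 56.1% of the 19092 genes tested were called. Of the 22, 11 were higher (28.5% of genes) and 11 lower (27.6%). The 27 calls at day 6 (76.1% of genes) were 15 higher (37.0%) and 12 lower (39.1%), and the 31 at day 10 (77.9% of genes) were 17 higher (37.0%) and 14 lower (40.9%). In K19R the 22 calls at day 2 (56.4% of genes) were 8 higher (28.5%) and 14 lower (27.9%). The 25 calls of that line at day 6 (72.3% of genes) were 13 higher (37.1%) and 12 lower (35.2%), and its 24 at day 10 (73.9% of genes) were 14 higher (38.1%) and 10 lower (35.8%). Among the 11 laminins, the median change at day 10 was 1.80 in FLAG-WT and 0.08 in K19R, beside -0.12 and 0.01 over all genes. Leaving out 1 library ended 2 to 6 of the calls in each of these comparisons, among them those of Lama2, Itga11 and Itgb8, which had few counts. None of the 8 genes followed throughout lost a call in these 6 comparisons.

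At day 2, K19R embryoid bodies had far less laminin-111 transcript than FLAG-WT embryoid bodies. Lama1 stood at 371 and 355 CPM in FLAG-WT and at 42.9 and 32.6 in K19R, a difference of -3.27 ± 0.14 (adjusted p = 7.27e-16). Lamb1 stood at 583 and 578 CPM against 176 and 167 (-1.76 ± 0.10) and Lamc1 at 663 and 657 against 373 and 291 (-0.99 ± 0.11). Lamb2, at 27.6 and 25.7 CPM against 17.2 and 15.95, was lower too, by 0.68 ± 0.09. Both K19R libraries were below both FLAG-WT libraries for each of these 4 chains. Lama5 went the other way, with 217 and 218 CPM in FLAG-WT and 313 and 243 in K19R (0.36 ± 0.10, adjusted p = 0.00449), a call that was lost without replicate 1 of K19R (0.16, adjusted p = 0.224). Lama3 was higher in K19R by 0.72 ± 0.16.

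Markers of endoderm moved with these genes. The summed level of 11 parietal endoderm markers was 1826 to 1852 CPM in FLAG-WT at day 2 and 184.9 to 201.9 in K19R, with 0 higher and 10 lower, and Sox7 at 104 and 105 against 8.67 and 8.62 CPM. This list also holds Sox17, Gata4, Gata6 and Dab2, and its sum is not read as particular to parietal endoderm. The summed level of 10 visceral endoderm markers was 2363 to 2456 against 177.6 to 235.2 CPM, with 0 higher and 8 lower. Other marker lists also separated the lines at day 2. Markers of fibroblasts and mesenchyme summed to 237.1 to 241.1 CPM in FLAG-WT and 41.65 to 43.05 in K19R, although 5 of the 8 tested were higher and 2 lower, and those of epiblast and primitive streak summed to 449.5 to 467.9 against 732.6 to 801.2, with 3 of 6 higher and 2 lower. The part of these lists in the laminin difference was not tested. Neither endoderm list holds a laminin or integrin gene.

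Of the receptors, Itga5, the alpha chain of the fibronectin receptor, differed most among those above 10 CPM at day 2. It stood at 149.6 and 148 CPM in FLAG-WT and 48.2 and 44.4 in K19R (-1.68 ± 0.07, adjusted p = 2.83e-16). Itga6, of the laminin receptors, was lower by 0.41 ± 0.07 and Itga9 by 1.07 ± 0.18. Itgb5, a beta chain for vitronectin receptors, was higher by 0.57 ± 0.09 and Itgal, the alpha chain of a leukocyte integrin, by 1.01 ± 0.17, while Itga2b, at 1.25 and 1.04 CPM in FLAG-WT and 2.34 and 2.38 in K19R, was higher by 1.05 ± 0.25. Differences for the broadly used chains were small: -0.21 ± 0.07 for Itgb1, -0.24 ± 0.09 for Itgav, 0.24 ± 0.07 for Itga3 and -0.29 ± 0.09 for Itgb4. These last 4 calls were each lost without at least 1 library; the adjusted p was 0.148 for Itgb1 without replicate 2 of FLAG-WT and 0.0524 without replicate 1 of K19R, 0.106 for Itga3 without replicate 1 of K19R, and up to 0.373 for Itgav and 0.105 for Itgb4, each lost when any 1 of 3 libraries was left out.

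In all, 22 of the 34 members tested were called between the lines at day 2, where 41.8% of genes tested were called. In K19R 7 were higher, beside 20% of genes, and 15 lower, beside 21.8%. Among laminins 2 were higher and 6 lower, and the median of the 11 was -0.68, beside 0 over all genes. Of the 22 calls, 12 were kept whichever library was left out. The 10 that were not were those of Itga1, Itga3, Itga4, Itga8, Itgav, Itgb1, Itgb4, Itgb7, Lama2 and Lama5, and their adjusted p then ranged from 0.0524 to 0.373.

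**Figure D2:**
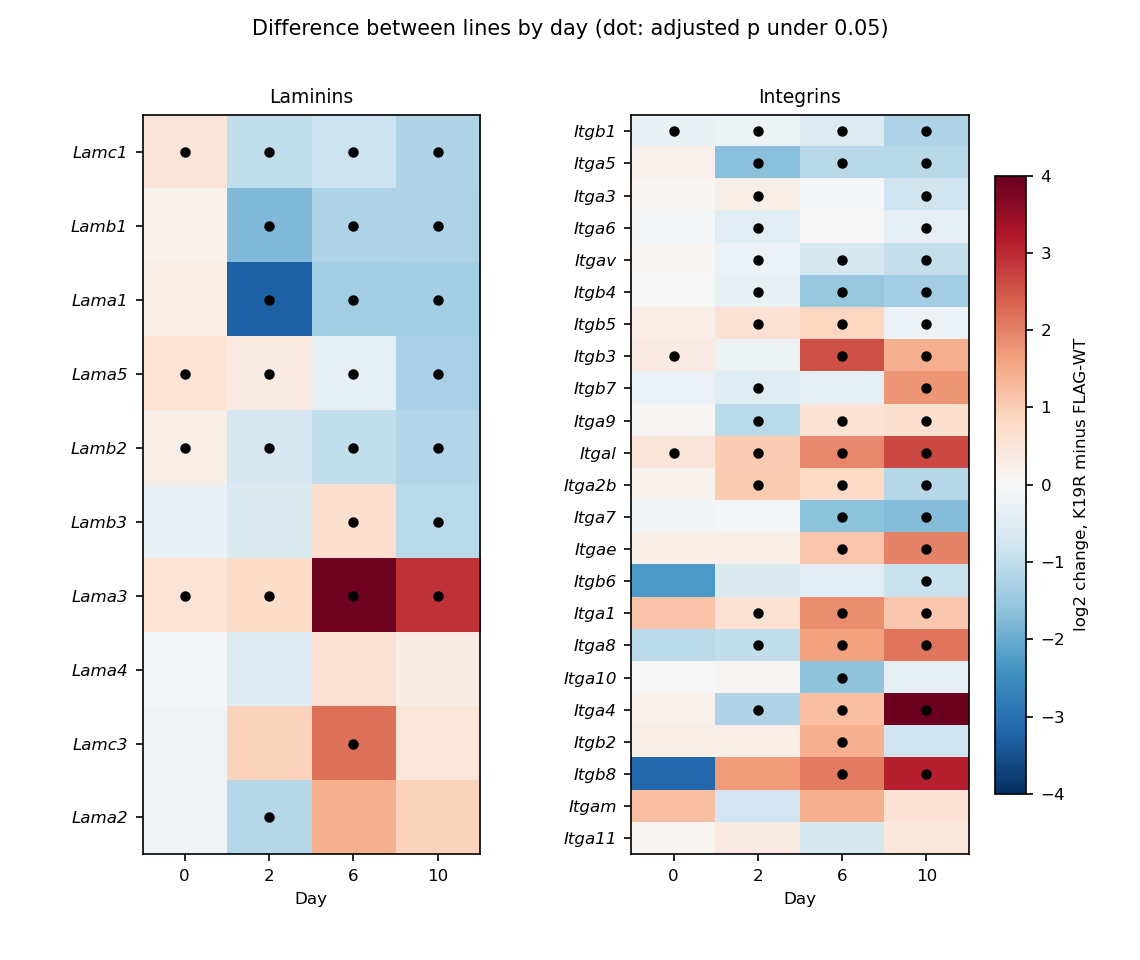
Difference between the lines (log2, K19R minus FLAG-WT, colour from -4 to 4) for the tested members reported here, with laminins on the left, integrins on the right, 1 column per day and genes sorted by mean CPM. Dots mark an adjusted p under 0.05, and the undotted colours of Itgb6 and Itgb8 at day 0 rest on few counts. Lama1 has the strongest blue at day 2 (-3.27) and Lama3 is red at day 6 (3.88).

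At days 6 and 10 the laminin-111 chains remained lower in K19R while other members were higher. At day 10 Lama1 was at 2586 and 3638 CPM in FLAG-WT and 1387 and 1018 in K19R (-1.37 ± 0.13), Lamb1 at 2886 and 3703 against 1564 and 1266 (-1.22 ± 0.10) and Lamc1 at 2677 and 3477 against 1503 and 1188 (-1.19 ± 0.11; adjusted p from 4.78e-11 to 1.47e-09). Every K19R library was below every FLAG-WT library. Lama5, at 967 and 1070 against 439 and 388 CPM, and Lamb2, at 256 and 284 against 127 and 112, were lower by 1.30 ± 0.10 and 1.18 ± 0.08. Lamb3 was higher in K19R at day 6 by 0.64 ± 0.17, a call lost without replicate 1 of FLAG-WT (adjusted p = 0.0643), and lower at day 10 by 1.07 ± 0.17.

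Lama3 was the only laminin called higher in K19R at both day 6 and day 10. It stood at 0.558 and 0.817 CPM in FLAG-WT at day 6 and 10.6 and 9.37 in K19R (3.88 ± 0.26, adjusted p = 1.1e-12), and at 0.157 and 0.535 against 2.19 and 2.97 CPM at day 10 (2.89 ± 0.37). The K19R level at day 6 was near that of day 0, 11.99 and 12.9 CPM. Lamc3, at 0.515 and 0.292 CPM in FLAG-WT and 1.81 and 2.04 in K19R at day 6, was higher by 2.19 ± 0.43 at that day. The sum of 7 markers of surface ectoderm and epidermis, tissues in which the Lama3 chain is made, was 43.26 to 45.86 CPM at day 6 in FLAG-WT and 19.38 to 22.04 CPM in K19R, but of the 6 tested 1 was higher and 2 lower in K19R and their median difference was 0.83. Several other lists had higher sums in K19R at day 6 without overlap. For pluripotent cells they were 375.6 to 448 CPM in FLAG-WT against 925.8 to 1048 in K19R. For epiblast and primitive streak they were 38.47 to 45.21 against 119.9 to 122.4, and for muscle 12.96 to 14.04 against 62.36 to 71.05. Neural cells gave 63.4 to 72.61 against 108.5 to 113.7 and endothelial cells 17.46 to 19.92 against 41.48 to 52.65. Blood cells and platelets gave 14.64 to 15.06 against 18.38 to 19.98 and trophoblast 27.79 to 33.88 against 37.96 to 39.72. The sums of both endoderm lists and of fibroblasts and mesenchyme were lower in K19R. The part of any of these lists in the Lama3 difference was not tested.

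At day 6 Lama1 differed by -1.38 ± 0.13, Lamb1 by -1.25 ± 0.10, Lamb2 by -0.98 ± 0.08 and Lamc1 by -0.85 ± 0.11. Lama5 was lower by 0.39 ± 0.10, but with libraries scaled by their totals alone this became -0.03 and was not called. The endoderm markers were also lower in K19R at day 6: the parietal sum was 4897 to 4960 CPM in FLAG-WT and 2215 to 2260 in K19R, and the visceral sum 23230 to 24060 against 7439 to 7937. At day 10 the parietal sums overlapped, at 3370 to 3883 and 3293 to 3892 CPM, with 3 of 11 markers higher and 5 lower, and the visceral sums were 34150 to 34930 and 22030 to 22040. Their part in the laminin differences was not tested.

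Among integrin beta chains the 2 lines parted in both directions. Itgb1, the common partner of laminin and fibronectin receptors, stood at 798 and 795 CPM in FLAG-WT and 538 and 549 in K19R at day 6 (-0.55 ± 0.07) and at 1183 and 1224 against 498 and 528 at day 10 (-1.23 ± 0.07, adjusted p = 2.94e-14). Itgb4, which pairs with the Itga6 chain in hemidesmosomes, the epithelial anchors on laminin, rose from 9.08 and 10.5 CPM at day 0 to 280.4 and 284 at day 10 in FLAG-WT and only from 10.0 and 9.17 to 109 and 104 in K19R. The difference was -1.50 ± 0.07 at day 6 and -1.41 ± 0.07 at day 10. Itgb3, a beta chain of vitronectin and fibrinogen receptors, was higher in K19R instead, at 3.86 and 3.85 CPM in FLAG-WT and 23.9 and 21.9 in K19R at day 6 (2.57 ± 0.12) and at 7.21 and 6.58 against 20.3 and 17.8 at day 10 (1.47 ± 0.11). Groups did not overlap for any of the 3 genes. Itgb5 was higher in K19R at day 6 (0.85 ± 0.10), and its small difference of -0.24 ± 0.09 at day 10 turned to 0.06 with library totals alone and was lost without replicate 2 of either line.

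**Figure D3:**
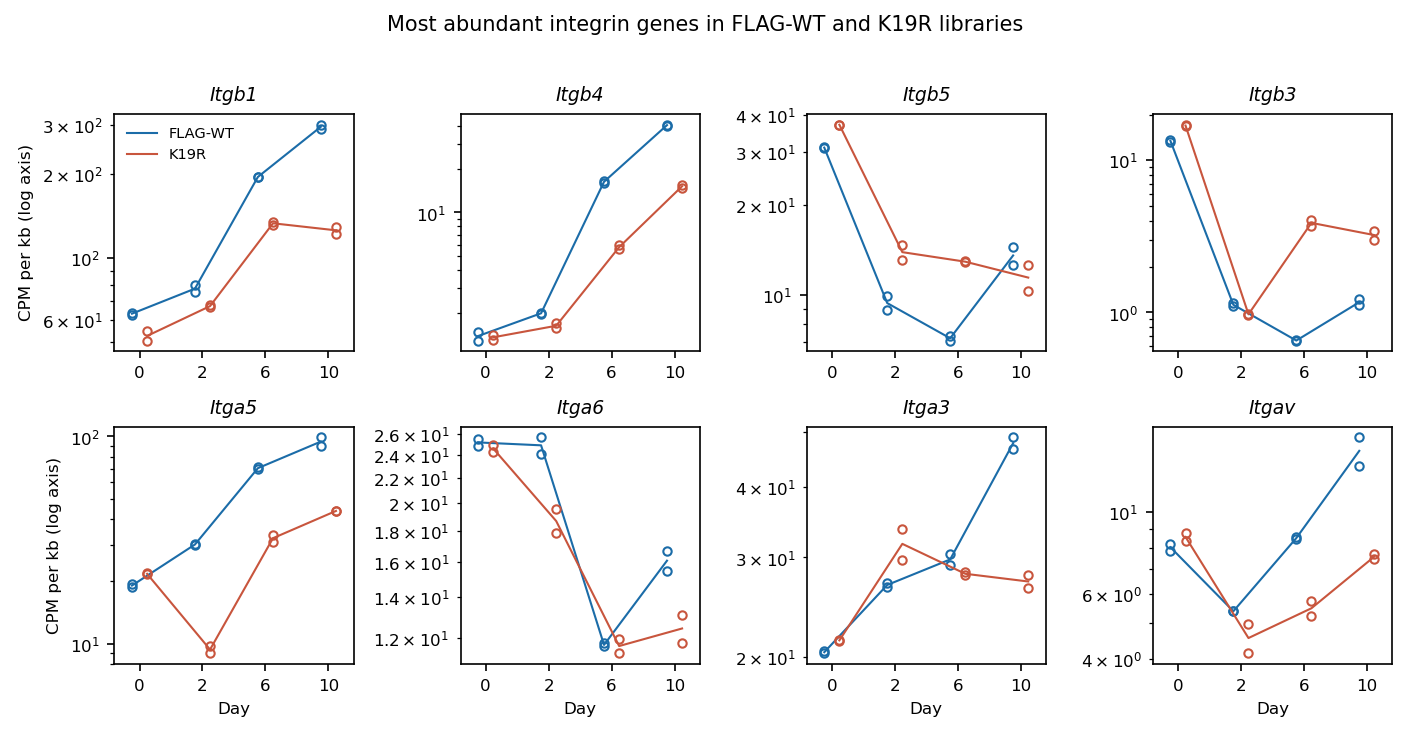
Level of the 8 integrin genes with the highest mean CPM, per kilobase of exon (CPM per kb, log axis, a separate scale in each panel), against day in the FLAG-WT and K19R lines. Each circle is 1 library and lines join the means of 2. Itgb1 reaches 295 CPM per kb in FLAG-WT and 126 in K19R at day 10, and Itga5 falls at day 2 in K19R and rises in FLAG-WT.

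The integrin alpha genes were split between the lines at the late days. Of the 15 tested, 7 were higher and 4 lower in K19R at day 6, beside 28.4% and 30.1% of all genes. The 4 lower were near that share, and the median of the 15 was 0.57 beside 0.02 over all genes. At day 10, 6 were higher and 6 lower, beside 33.2% and 25.2% of all genes, with a median of 0.46 beside 0.13. Itga5 was at 349.6 and 344 CPM in FLAG-WT against 153 and 166 in K19R at day 6 (-1.12 ± 0.07) and at 443 and 489 against 217 and 215 at day 10 (-1.11 ± 0.07, adjusted p = 2.47e-13). Itgav, an alpha chain that binds vitronectin, was lower by 0.63 ± 0.09 and 0.95 ± 0.08 at days 6 and 10. Itga7, a laminin-binding chain known from muscle, was at 7.90 and 7.36 CPM against 1.69 and 3.20 at day 6 (-1.63 ± 0.28) and lower by 1.73 ± 0.26 at day 10. The summed muscle markers went the other way at day 6, with 4 of 6 tested higher in K19R, and overlapped at day 10. Itga4 and Itga8, alpha chains that bind fibronectin among other ligands, were higher in K19R by 1.20 ± 0.47 and 1.61 ± 0.51 at day 6. Itga3 and Itga6 were not called at day 6 (-0.08 ± 0.07 and -0.01 ± 0.07), and with library totals alone these became 0.28 and 0.35 and were called. At day 10 they were lower by 0.81 ± 0.07 and 0.37 ± 0.07, the latter -0.07 and not called with library totals alone. Itga6 was lower at days 6 and 10 than at day 0 in both lines, in contrast to Itgb4. In FLAG-WT, Itga6 went from 224 and 230 CPM at day 0 to 106 and 105 at day 6, and its fall from day 0 was smaller at day 10.

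Of the integrins known from leukocytes, Itgal and Itgae were higher in K19R at day 6, by 1.91 ± 0.33 and 1.10 ± 0.29, and at day 10, at low levels. Itgb7 was not called at day 6 (-0.35 ± 0.17) and higher at day 10. Itgb2, the partner of Itgal, was higher at day 6 (1.41 ± 0.44) and not called at day 10 (-0.81 ± 0.49). Itgal was at 0.104 and 0.214 CPM in FLAG-WT and 1.28 and 0.763 in K19R at day 10 (2.66 ± 0.51), Itgae, an alpha chain of a T cell integrin that binds E-cadherin, at 0.365 and 0.375 against 1.596 and 1.36 (1.98 ± 0.38), and Itgb7, its partner, at 1.31 and 1.39 against 4.71 and 4.45 (1.76 ± 0.22). Itga4, at 0.104 and 0.0535 against 1.72 and 0.806 CPM (3.92 ± 0.69), and Itgb8, at 0.470 and 0.107 against 2.07 and 3.05 (3.12 ± 0.55), were higher as well. Itga2b, the alpha chain of the platelet fibrinogen receptor, was higher in K19R at day 6, at 6.398 and 7.71 against 12.8 and 11.8 CPM (0.81 ± 0.16), and lower at day 10 (-1.14 ± 0.18). The defining blood marker Ptprc was between 0 and 0.193 CPM in all 16 knock-in libraries, Gp1bb was at 0 in all of them, and Gp9 had counts in 1. The 11 markers of blood cells and platelets summed to 5.796 to 6.959 CPM in FLAG-WT and 9.076 to 13.16 in K19R at day 10, with 2 of the 4 tested higher and 0 lower, and most of that was Laptm5, at 4.60 and 5.51 against 11.4 and 7.17 CPM. Its part in the integrin differences was not tested.

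The calls at day 6 numbered 26 of the 34 members tested, where 58.5% of genes tested were called. They were 14 higher in K19R (28.4% of genes) and 12 lower (30.1%), and library totals alone gave 17 and 9. The 27 calls of day 10, where 58.4% of genes were called, were 10 higher (33.2% of genes) and 17 lower (25.2%). Of the 11 laminins, 3 were called higher and 6 lower on day 6, while on day 10 a single one, Lama3, was higher and 7 were lower, with a median of -1.18 at day 10 beside 0.13 over all genes. Calls lost without some 1 library were those of Itga4, Itga8, Itga9, Itga10, Itgb2 and Lamb3 at day 6 and of Itga1, Itga8, Itga9, Itgb5 and Itgb6 at day 10 (adjusted p up to 0.403).

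Day 0 differed from the later days. In LIF and 2i the K19R cells had more, not less, of several laminin transcripts. Lama5 stood at 441 and 427 CPM in FLAG-WT and 594 and 672 in K19R (0.54 ± 0.10, adjusted p = 0.000409) and Lamc1 at 870.2 and 892 against 1197 and 1348 (0.53 ± 0.11, adjusted p = 0.0025), with no overlap. Lama3 (0.54 ± 0.16), Itgal (0.53 ± 0.16), Itgb3 (0.33 ± 0.08) and Lamb2 (0.27 ± 0.08) were called higher and Itgb1 (-0.26 ± 0.07) lower. Lama1 (0.26 ± 0.13, adjusted p = 0.231), Lamb1 (0.13 ± 0.10), Itga5 (0.19 ± 0.07), Itgav (0.09 ± 0.08) and Itga6 (-0.03 ± 0.07) were not called. The 7 calls stand beside 10.5% of genes called, the 6 higher beside 5.51% and the 1 lower beside 4.98%, and 2 or 3 remained in number when any 1 of the 4 libraries was left out. Lama5 was the 1 call kept in each of these 4 fits, and Lamc1 was lost without replicate 2 of K19R (0.45, adjusted p = 0.0587). The other 5 were each lost without 3 or all 4 of the libraries, with adjusted p from 0.0557 to 0.309. Visceral endoderm markers were uneven between the FLAG-WT replicates at day 0, at 9.536 and 113.6 CPM, with Afp at 1.78 and 55.0, and at 7.895 to 9.495 in K19R.

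The difference between the lines therefore changed with time for part of the members, and this was tested directly as the interaction of line and day. From day 0 to day 2 the difference moved for 12 of the 34 members tested, where 27.1% of genes were called. Of the 12, 1 went upward (12.7% of genes) and 11 downward (14.4%). No upward call was made without the filter on low counts, with DESeq2 or with a replicate block, where 11, 9 and 10 went downward. The shift was -3.53 ± 0.19 for Lama1, -1.88 ± 0.14 for Lamb1, -1.87 ± 0.10 for Itga5 and -1.52 ± 0.16 for Lamc1 (adjusted p from 1.19e-13 to 5.32e-08), and for Lama5 it was -0.19 ± 0.14 (adjusted p = 0.344), which became -0.38 and was called without replicate 1 of K19R day 2 (adjusted p = 0.0309). Itga6 and Itgav shifted by -0.38 ± 0.10 and -0.33 ± 0.12 and Itgb1 by 0.06 ± 0.09. The call for Itgav was lost without any of 7 of the 8 libraries, with an adjusted p up to 0.235. From day 0 to day 6 there were 18 calls (44.5% of genes), 7 upward (22.1%) and 11 downward (22.4%), or 14 and 9 by library totals alone, of which 15 were kept whichever library was left out. That shift was -1.64 ± 0.18 for Lama1, -1.38 ± 0.16 for Lamc1, -1.37 ± 0.14 for Lamb1, -1.31 ± 0.10 for Itga5, -0.93 ± 0.14 for Lama5, -0.72 ± 0.12 for Itgav and 0.03 ± 0.10 for Itga6. For Itgb1 it was -0.29 ± 0.09, a call lost without replicate 1 of K19R day 0 (adjusted p = 0.0883) and turned to 0.10 with library totals alone.

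From day 0 to day 10 the difference moved for 22 members (45.0% of genes), 7 upward (26.1%) and 15 downward (18.8%), and all 22 calls were kept when single libraries were left out. At day 10 the shift was -1.84 ± 0.14 for Lama5, -1.72 ± 0.16 for Lamc1, -1.63 ± 0.18 for Lama1, -1.34 ± 0.14 for Lamb1, -1.30 ± 0.10 for Itga5, -1.04 ± 0.12 for Itgav, -0.97 ± 0.09 for Itgb1 and -0.34 ± 0.10 for Itga6. Upward shifts at day 10 were those of Itga4, Itga8, Lama3, Itgal, Itgb7, Itgae and Itgb3, from 1.13 ± 0.14 for Itgb3 to 3.74 ± 0.85 for Itga4.

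Compared per length, the make-up of the laminin alpha chains switched at different times in the lines. In FLAG-WT, Lama1 made up 27.9 ± 1.5% (SD, n = 2) of the summed CPM per kb of the 5 alpha genes at day 0. It made up 65.4 ± 0.73% at day 2, 73.4 ± 0.67% at day 6 and then 77.9 ± 2.9% at day 10. In K19R the share was 24.2 ± 0.64% at day 0 and only 13.2 ± 0.24% at day 2, before it came to 57.7 ± 0.84% at day 6 and 76.9 ± 2.4% at day 10. Lama5 made up nearly all of the rest, 82.8 ± 0.20% in K19R at day 2 against 33.3 ± 0.76% in FLAG-WT. The shares of day 10 differed between the lines by less than their SD, although both genes were lower in K19R. Among beta chains the share of Lamb1 went from 46.5% to 92.7% by day 2 in FLAG-WT and from 44.4% to 85.8% in K19R.

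Itga5 followed a like course among the 18 integrin alpha genes. Its share of their CPM per kb was 24.7 ± 0.42% at day 0, 33.0 ± 0.76% at day 2 and 56.8 ± 0.07% at day 6 in FLAG-WT, and 26.7 ± 0.05%, 13.6 ± 0.18% and 39.2 ± 1.5% in K19R. At day 2 Itga3 was the leading alpha gene in K19R with 46.0 ± 0.81%, while in FLAG-WT Itga5, Itga3 and Itga6 were at 33.0%, 29.4% and 27.2%. Itgb1 was the most abundant beta gene in every group, from 47.6 ± 1.3% of the beta genes in K19R at day 0 to 88.1 ± 0.06% in FLAG-WT at day 6. These shares were not tested.

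**Figure D4:**
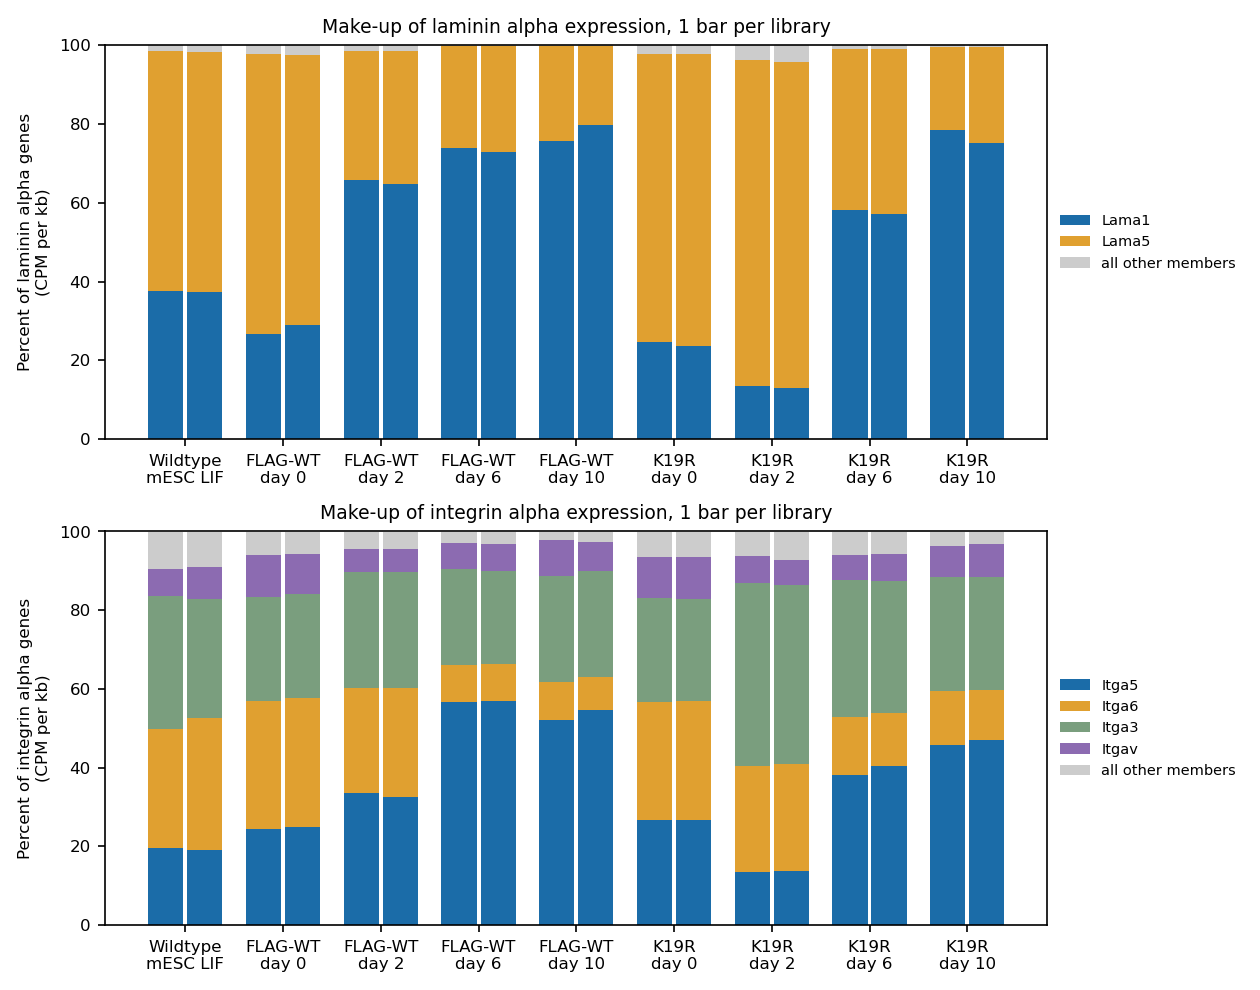
Percent of the summed level per kilobase of exon held by each gene, for the 5 laminin alpha genes (top) and the 18 integrin alpha genes (bottom). Each bar is 1 library and colours are genes. The blue Lama1 part is 13.2% on average in K19R at day 2 against 65.4% in FLAG-WT, and the blue Itga5 part is 13.6% against 33.0%.

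Other genes of the pathway, taken from lists chosen with earlier results of these data known, moved in mixed directions. Of 19 tested genes of other basement membrane proteins, 2 were higher and 10 lower in K19R at day 2, and by day 10 these were 7 and 10, with medians of -0.36 and -0.54 beside 0 and 0.13 over all genes. The shares of all genes called higher and lower were 20% and 21.8% at day 2 and 33.2% and 25.2% at day 10, and the 7 higher of day 10 were near that share. Col4a1 and Col4a2, which encode the chains of the main type IV collagen, stood at 1312 ± 24.8 and 529.5 ± 7.66 CPM in FLAG-WT at day 2 and at 189 ± 20.1 and 64.2 ± 3.49 in K19R (-2.79 ± 0.10 and -3.04 ± 0.09), differences of the size seen for Lama1. Nid1, the nidogen that bridges laminin and collagen, and Hspg2, the perlecan proteoglycan, were lower at day 10 by 1.73 ± 0.10 and 1.42 ± 0.14. Frem2 at day 2 and Col4a5 and Smoc1 at day 10 were higher, by 0.48 ± 0.15, 0.83 ± 0.25 and 0.83 ± 0.08.

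Laminin receptors other than integrins, with the enzymes that glycosylate dystroglycan, gave 5 higher and 3 lower of 18 tested at day 2, beside 20% and 21.8% of all genes, then 8 and 5 at day 10, beside 33.2% and 25.2%. Their medians of 0.05 and 0.10 were close to the 0 and 0.13 of all genes. Sdc1, a syndecan, turned from higher at day 2 (0.83 ± 0.09) to lower at day 10 (-2.02 ± 0.09), and Dmd, which encodes dystrophin, turned from lower (-0.81 ± 0.08) to higher (1.25 ± 0.11). Sgcb was higher and Sgce lower at day 2 (0.90 ± 0.19 and -0.72 ± 0.12), and Sdc3 was lower at day 10 (-0.76 ± 0.13). Other integrin ligands gave 7 higher and 3 lower of 21 at day 2, then 7 and 13 at day 10, against the same shares of all genes, and the 7 higher of day 10 were near theirs. Ctgf and Cyr61, matricellular proteins, were at 2032 ± 348 and 2052 ± 176 CPM in FLAG-WT at day 10 and 176 ± 32.7 and 286 ± 38.8 in K19R (-3.53 ± 0.12 and -2.84 ± 0.09), although Ctgf had been higher in K19R at day 2 (0.67 ± 0.16); 23.2% of its exon bases are shared with another gene. Postn and Tnc, periostin and tenascin C, were higher in K19R at day 10, at 19.9 ± 1.46 and 9.13 ± 1.58 CPM against 0.0261 ± 0.0369 and 0.0796 ± 0.0388. Pathway genes were named only with a mean of at least 1 CPM over the 16 knock-in libraries. Postn and Tnc, with means of 2.82 and 1.38, reached it through K19R day 10, so their choice rests in part on the group in which they are high. The markers of fibroblasts and mesenchyme, which hold neither gene, summed to 120.1 to 123.4 CPM in FLAG-WT and 196.9 to 216.2 in K19R at day 10, with 6 of 8 tested higher, 2 lower and a median of 2.77, and their part was not tested. At day 2 Vwf was higher by 0.95 ± 0.19, and Spp1 and Fgb were lower by 1.47 ± 0.10 and 2.06 ± 0.46.

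The adaptors and regulators on the cytoplasmic side of integrins were mostly lower in K19R at day 10, with 4 higher and 23 lower of 32 tested, beside 33.2% and 25.2% of all genes, and a median of -0.60 beside 0.13. At day 2 they gave 4 higher and 9 lower, beside 20% and 21.8% of all genes, and a median of -0.07 beside 0. Lims2, a PINCH family adaptor, stood at 21.5 ± 2.99 CPM in FLAG-WT and 3.66 ± 0.07 in K19R at day 10 (-2.55 ± 0.17), and Cd9, a tetraspanin, was lower by 1.47 ± 0.07. Tln2, which encodes talin 2, and Actn2, an alpha-actinin of muscle, were higher at day 10 by 1.67 ± 0.12 and 3.20 ± 0.48, and Actn2 is also 1 of the muscle markers. Actn2 and Tns2 were higher at day 2 (1.61 ± 0.26 and 1.44 ± 0.14) and Parva lower (-1.27 ± 0.16). Ilk was called lower at day 2 (-1.05 ± 0.31) from 1.3 ± 0.66 and 2.70 ± 0.45 CPM, but 89.7% of its exon bases are shared with Rrp8 and Taf10 and could not be counted.

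Wildtype mESCs in LIF alone had another set of integrin and laminin transcripts than FLAG-WT cells in LIF and 2i. This comparison differs in genotype, medium and count table at once, and their parts cannot be told apart. Levels are from the scaling of all 18 libraries. Itgb3 stood at 8.84 and 9.03 CPM in the wildtype cells and at 79.1 and 81.2 in FLAG-WT cells (-3.16 ± 0.09, adjusted p = 7.54e-21), and Itgb5 at 43.1 and 43.3 against 112 and 111.2 (-1.37 ± 0.09). Both beta chains pair with the Itgav chain, which was lower as well (-0.67 ± 0.09). Itgb7 at 33.9 and 30.2 against 7.22 and 8.27 CPM (2.04 ± 0.12) and Lamb1 at 229.5 and 219.5 against 56.7 and 60.5 (1.94 ± 0.10) were higher in wildtype cells, and Itgb1 was higher by 0.50 ± 0.06. Lamc1 (-1.02 ± 0.11), Lama5 (-0.72 ± 0.09), Itga5 (-0.57 ± 0.07) and Itga6 (-0.24 ± 0.07) were lower, and Lama1 did not differ beyond its error (-0.09 ± 0.13, adjusted p = 0.541).

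Among members with few counts, Itga1 at 2.47 and 2.61 against 0.334 and 0.400 CPM (2.78 ± 0.33) and Itgb8 at 0.390 and 0.541 against 0 and 0.0799 (3.44 ± 0.92) were higher in wildtype cells, and Lama4 and Lama3 were lower by 1.17 ± 0.25 and 0.99 ± 0.17. In all 24 of the 34 members tested were called, where 64.9% of the 19296 genes tested were called. Of the 24, 11 were higher (32.4% of genes) and 13 lower (32.5%). Of these calls 15 were kept whichever library was left out; those lost included Itga6 (adjusted p = 0.0951 without wildtype replicate 1), Itgb4 (0.535 without wildtype replicate 2), Itgb2, Itgae, Itgam, Itga2b, Itga10 and Lamc3. Embryoid bodies had neither LIF nor 2i, and their change from day 0 to day 2 in FLAG-WT shares the FLAG-WT day 0 libraries with this comparison. It was -3.58 ± 0.10 for Itgb3, -1.73 ± 0.09 for Itgb5, 3.32 ± 0.11 for Lamb1, 0.66 ± 0.07 for Itga5 and 1.30 ± 0.13 for Lama1, beside -3.16, -1.37, 1.94, -0.57 and -0.09 here. In K19R, measured from its own day 0 libraries, it was -4.12 ± 0.10, -1.41 ± 0.09, 1.44 ± 0.10, -1.21 ± 0.07 and -2.22 ± 0.14.

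**Figure D5:**
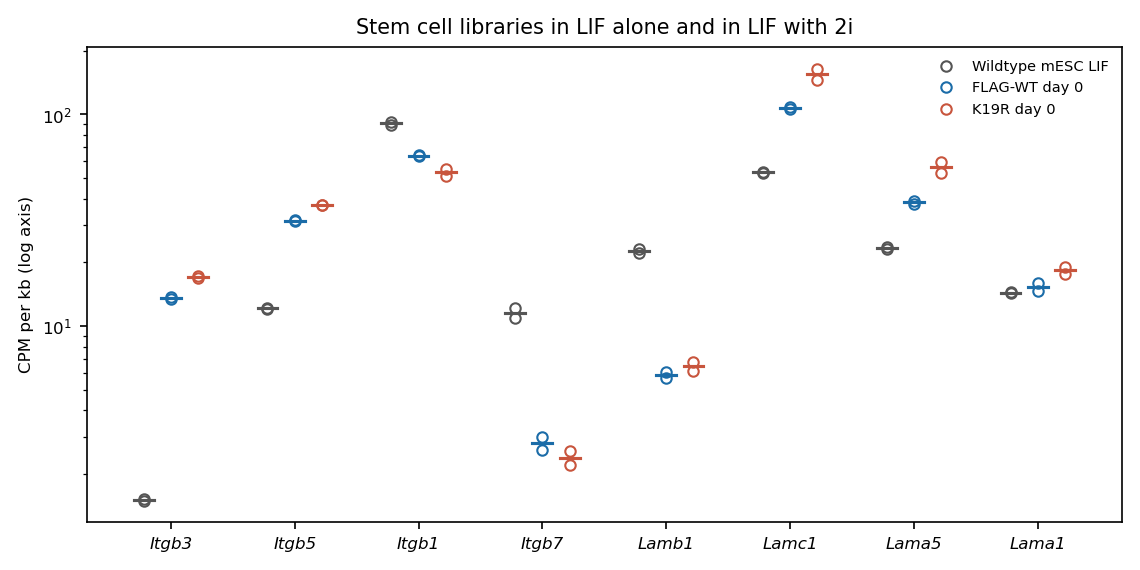
Level of 8 members per kilobase of exon (CPM per kb, log axis) in the 3 groups of stem cell libraries: wildtype in LIF, FLAG-WT and K19R in LIF with 2i. Circles are libraries and bars the mean of 2. Itgb3 and Itgb5 are lower and Itgb7 and Lamb1 higher in the wildtype cells, and Lama1 is close in all 3.

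The remaining members were low or were limited by how they could be counted. Itgb6, an epithelial beta chain, went from 0.0413 and 0 CPM at day 0 to 6.89 and 8.94 at day 10 in FLAG-WT and from 0 and 0 to 4.71 and 3.82 in K19R, at least 34.1-fold higher there against a floor of 3 counts per library. Itgb8 was at 0 in both K19R libraries at day 0 and at least 20.5-fold higher at day 10. Itgb8 passed the filter on low counts through K19R days 6 and 10, the groups in which it is high. Its calls there thus rest in part on that selection. Lama2 and Itga11 also reached the filter's level in 2 groups, Itgam and Lamc3 in 3 and Itgb6 in 4 of the 8. Day 0 of either line was not among the 4 of Itgb6, so its rises rest in part on that selection too. Itga8, Itga9, Itga10, Itga11, Itgb2, Itgam, Lama2 and Lama4 stayed between 0 and 11.8 CPM in every knock-in library. Reads over exons that 2 genes share are left out by the counting, and 68.7% of the exon bases of Itgam and 33.5% of those of Itga10 are shared, so their levels are uncertain. Such sharing reached at most 8.04% in the members tested other than these 2, and was 0 for Lama1, Lamb1, Lamc1, Lama5, Itgb1, Itgb3, Itga5 and Itga6.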

How the data were processed

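Total RNA of mouse embryonic stem cells and embryoid bodies was sequenced in 18 libraries. The authors deposited raw counts of read pairs per gene: featureCounts counted exons by gene name on GENCODE vM19 (GRCm38), without strand, in 1 table of the 16 knock-in libraries and 1 of the wildtype libraries, per the file headers. STAR 2.7.0c and Trim Galore 0.6.0 are named in the submitters' processing notes. Reads over exons of more than 1 gene are not counted under these settings.

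From the counts, edgeR 4.0.16 (R 4.3.3) was fitted with TMM scaling and its quasi-likelihood test, after filterByExpr (minimum count 10, minimum total 15), over 19092 genes in the 16 knock-in libraries and 19296 in all 18, with 8 and 9 residual degrees of freedom. There were 14 comparisons, each adjusted by Benjamini-Hochberg over all genes tested, with a threshold of 0.05. The SE is the log2 change divided by the square root of F. CPM per kb divides by the gene's exon bases. On simulated counts for the day 2 comparison with 200 changed genes, 96% of 2-fold and 97% of 4-fold changes were recovered, and 5.39% of calls were false. The simulation gave every gene the same spread and left genes of the lowest levels unchanged. These rates therefore do not carry over to members with few counts or uneven replicates. Alternatives were RLE size factors, library totals, no filter, DESeq2 1.42.0, a replicate block, a fit of the compared groups alone and leaving out each library. Full statistics were given to at most 12 called members per comparison by size of change and to 8 genes followed throughout, and from each pathway list to the 2 largest rises and falls at days 2 and 10. Pathway genes had to be called and to have a mean of at least 1 CPM over the 16 knock-in libraries. Members and lists were chosen with earlier results of these data known. Of the promoters planned, only that of Lamb1 had an entry, and those of Lama5 and Itga5 were added after their values were seen. A planned comparison of integrin protein sequences was not made. Some results of single genes are not reported here, and counts of members and lists include those genes.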

Additional observations from a re-analysis of the deposited data

Results flagged for a closer look

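The difference between K19R and FLAG-WT was not the same on all days, by a test of the change in that difference from day 0 (edgeR's interaction of line and day). It moved for 12 of the 34 members tested at day 2, 18 at day 6 and 22 at day 10, beside 27.1%, 44.5% and 45.0% of all genes. At day 6 the 7 upward and 11 downward became 14 and 9 with library totals alone. Of the 4 laminin genes called higher in K19R at day 0, Lamc1, Lamb2 and Lama5 moved downward and ended as lower calls. These genes were picked by their day 0 difference, and the shift subtracts the same day 0 libraries. The choice alone therefore favours downward shifts, whereas the lower calls between the lines at day 10 do not use day 0 levels. The other laminin gene called higher at day 0, Lama3, moved upward by 3.34 at day 6 and 2.34 at day 10 and was not called at day 2 (0.18). For Lamc1 the shift was -1.52 at day 2, -1.38 at day 6 and -1.72 at day 10. For Lamb2 it was -0.95, -1.25 and -1.44. For Lama5 it was -0.19 at day 2, which was not called, -0.93 at day 6 and -1.84 at day 10. The day 0 calls of Lamc1 and Lamb2 were lost without some single libraries, Lamc1 without replicate 2 of K19R (adjusted p = 0.0587) and Lamb2 without any of the 4 (adjusted p from 0.127 to 0.183).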

How the results depend on the processing

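Counts of called members stayed within 1.5 times of the reported ones under every alternative run in 13 of the 14 comparisons. For K19R against FLAG-WT at day 0 the 7 calls became 11 in a fit of the 4 compared libraries alone and 2 to 3 without single libraries. The 6 changes that reversed did so with library totals alone: at day 6 between the lines Itga6 to 0.35 (from -0.01) and Itga3 to 0.28 (from -0.08), at day 10 Itgb5 to 0.06 (from -0.24), in FLAG-WT at day 6 Itgav to -0.30 (from 0.08), and in the interaction at day 6 Itgb1 to 0.10 (from -0.29) and Itga3 to 0.23 (from -0.15). That scaling moved the median of all genes by 0.36 and 0.31 between the lines at days 6 and 10 and by -0.38 and -0.41 in FLAG-WT from day 0, and changes of this size depend on it. Leaving out the filter moved medians by up to 0.13 in size. Replicate numbers are shared between groups, but differences between replicates correlated at -0.07 to 0.11 over 36 pairs of groups, so they were not taken as pairs. With a replicate block, 20 members were called between the lines at day 2 in place of 22, and 5 of 476 changes lost their call. Of the 476 changes, 60 lost their call and 17 gained one without at least 1 of the single libraries. Members under about 1 CPM have too few counts for a firm size of change. Levels per length with library totals alone were not run, and shares within a library do not depend on the scaling.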
